A study of Bos taurus with 16 samples.

Results

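The collagen genes were followed in liver biopsies of 16 multiparous Holstein cows at week 1 postpartum, 8 with high hepatic *FGF21* expression (*FGF21* high) and 8 with low expression (*FGF21* low). All were female and received the same total mixed ration, and there was 1 Affymetrix whole-transcript array for each cow. The groups differ by no treatment and no allele: the animals were selected from a herd for high or low *FGF21* mRNA in their liver, so other traits that vary with hepatic *FGF21* cannot be told apart from it. *FGF21* encodes a liver hormone of energy metabolism, and its signals, which only describe that selection, were 6.16 to 8.69 in *FGF21* high cows and 4.78 to 5.51 in *FGF21* low cows on the log2 scale. A gene was taken as a member when its symbol on the array began with COL, a number, A and a number. This held for 45 of 20421 transcript clusters, a transcript cluster being the set of probes that reports on a gene. These clusters carry 43 symbols, and where a symbol had more than 1 cluster, the one with the highest mean signal was used. Of the 43 symbols, 42 name collagen chains. The remaining one, *COL4A3BP*, is an older symbol of *CERT1*, a ceramide transfer protein that is no collagen, and it is left out of all counts of collagens. RefSeq lists 44 bovine symbols of this form, and *COL27A1* and *COL28A1* had no matching cluster.

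Collagens are secreted proteins in which 3 chains wind around each other into a triple helix. Fibrillar collagens assemble into the load-bearing fibers of connective tissue, type IV collagens form the sheet of the basement membrane under epithelia and around vessels, and the remaining families link fibrils, build finer filaments or sit in the cell membrane. In healthy liver they lie mainly in the portal tracts, the vessel walls and the capsule, with little in the space between hepatocytes and sinusoids. Hepatic stellate cells and portal fibroblasts are the cells best known for making fibrillar collagen when liver scars. The members comprised 10 fibrillar chains, 6 type IV chains and 26 others.

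No collagen gene passed the adjusted threshold between the groups. With p from limma adjusted over all 20421 clusters by the method of Benjamini and Hochberg, 0 of the 42 collagens were below 0.05, where the share of all clusters was 0.0294%, and the adjusted p of the collagens were 0.484 to 1.00. At an unadjusted p under 0.05, 3 collagens were lower in *FGF21* high cows, *COL6A2*, *COL20A1* and *COL1A2*, which is 7.14% of the collagens against 4.52% of all clusters. None was higher, against 2.89% of all clusters. Over both directions, 7.14% of the collagens were thus below this threshold, against 7.42% of all clusters. When a fold change above 1.2 was required as well, 0 collagens were left in either direction, against 1.29% of all clusters that were higher, 1.54% that were lower and 2.84% in either direction. The methods' unpaired test gave 4 collagens at p under 0.05, these 3 and *COL5A3*, and 0 after adjustment.

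The differences were small. The largest was 1.18-fold, and the 95% confidence intervals of the 42 collagens together reached from 0.70-fold to 1.30-fold, so that for no collagen did the interval include a doubling or a halving. The values of the groups overlapped for all 42 collagens, and 0.0539% of all clusters were without overlap. Of the 42 log2 fold changes, 34 were negative (81.0%), against 56.6% over all clusters. The median log2 fold change was -0.06 for the collagens and -0.017 for all clusters. Genes of one family are not independent of each other, and the share of negative values is a description. It moved with some of the processing. With the arrays centred on their medians it stayed at 34 of 42, against 51.7% over all clusters, and with array weights too, against 54.0%. Leaving out 1 cow gave 32 to 36 of 42. When only clusters with a mean signal above the median of all clusters were kept, 11 of 15 collagens were negative (73.3%), against 50.3% of the clusters kept. With the running number of the sample labels as a covariate 29 of 42 were negative, against 59.0% over all clusters, and with renewed quantile normalization 31 of 42, against 51.1%. After the 4 arrays with the widest spread were left out (replicates 1 and 6 of *FGF21* high and replicates 1 and 2 of *FGF21* low, a step chosen after seeing the data), 28 of 42 were negative and the median was -0.028, against 49.9% negative over all clusters.

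**Figure D1:**
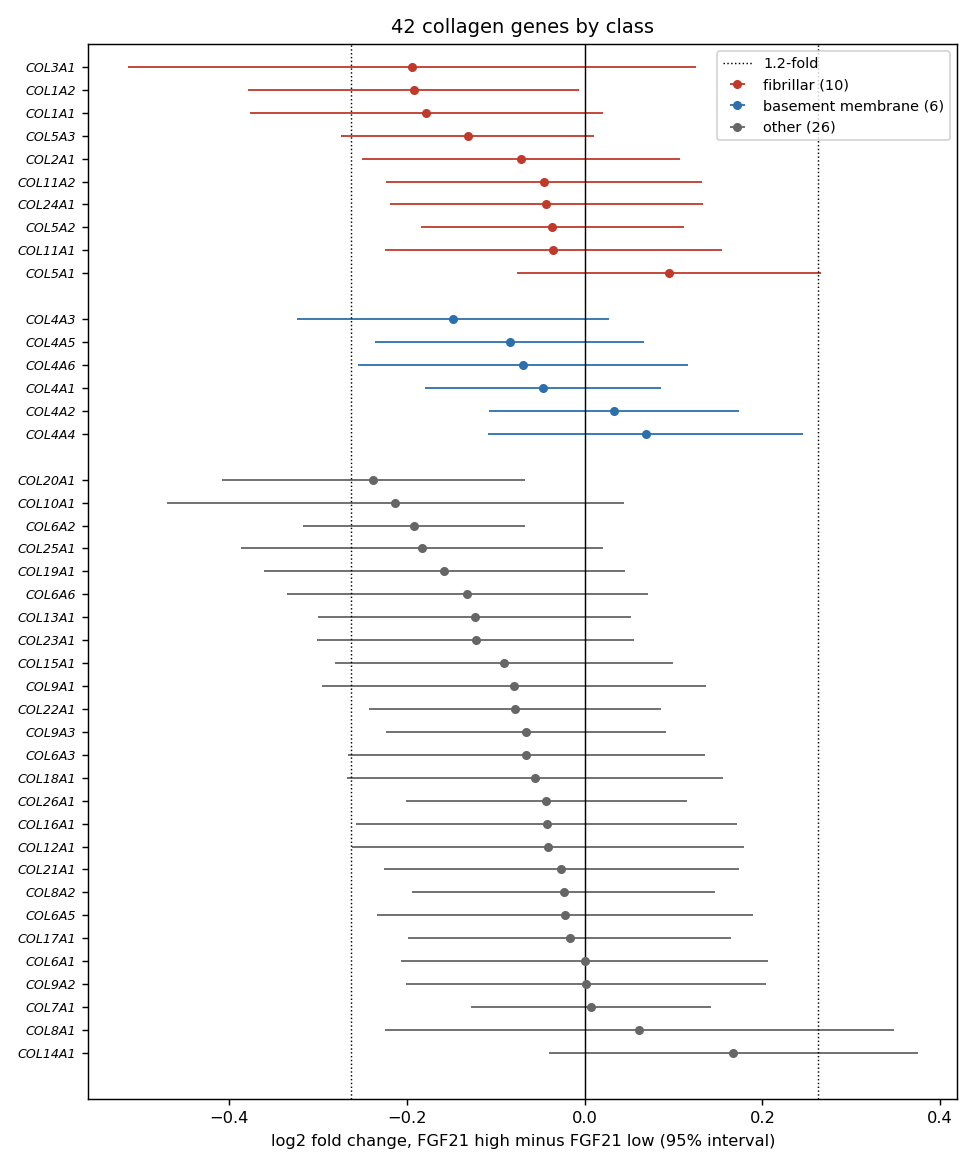
Log2 fold change (*FGF21* high minus *FGF21* low, 8 cows each) of the 42 collagen genes with its 95% confidence interval from limma, by class; dotted lines mark a 1.2-fold change. No point lies beyond a 1.2-fold change, 34 of 42 points lie below 0, and only the intervals of *COL6A2*, *COL20A1* and *COL1A2* leave out 0.

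The median log2 fold change was -0.06 in the fibrillar collagens, with 9 of 10 negative. It was -0.06 in the type IV collagens, with 4 of 6 negative. In the other collagens it was also -0.06, with 21 of 26 negative. The fibrillar median ranged from -0.10 to -0.033 when 1 cow was left out. It moved by over 1.5 times without *FGF21* high replicate 3 (-0.09), 5 (-0.037), 6 (-0.033) or 7 (-0.10). When only genes with a mean signal above the median of all clusters were kept, the class medians came apart, with -0.18 for 3 fibrillar, -0.0068 for 2 type IV and -0.042 for 10 other collagens. When the collagens were averaged for each cow after subtraction of each gene's mean, the fibrillar class stood at -0.042 ± 0.091 in *FGF21* high cows and 0.042 ± 0.093 in *FGF21* low cows (SD, n = 8 each). The type IV class stood at -0.021 ± 0.081 in *FGF21* high cows and 0.021 ± 0.067 in *FGF21* low cows. The other collagens stood at -0.034 ± 0.074 in *FGF21* high cows and 0.034 ± 0.080 in *FGF21* low cows. In every class the distance between the groups was less than 1 SD of the cows. Liver biopsies are mixtures, and fewer cells of a type and less RNA per cell cannot be told apart in such signals.

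Type I collagen, the main collagen of fibrous tissue, is built from the chains of *COL1A1* and *COL1A2*, and type III collagen, which accompanies it in the reticular fibers of liver, from that of *COL3A1*. *COL1A1* lies on chromosome 19 (37088246 to 37105011, plus strand), *COL1A2* on chromosome 4 (11624470 to 11661163, plus strand) and *COL3A1* on chromosome 2 (7317287 to 7356904, minus strand), in the coordinates of the array annotation, for which the sources used here name no genome build. The lowest, median and highest log2 signals of *COL1A1* were 6.79, 6.91 and 7.22 in *FGF21* high cows and 6.86, 7.05 and 7.49 in *FGF21* low cows. The groups overlapped widely, and 7 of the 8 *FGF21* high cows lay below the *FGF21* low mean. The log2 fold change of *COL1A1* was -0.18 (standard error 0.10, limma p = 0.0758, adjusted p = 0.715, exact permutation p = 0.0925, two-sided).

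*COL1A2* had signals of 5.73, 6.07 and 6.19 (lowest, median and highest) in *FGF21* high cows and 5.98, 6.15 and 6.54 in *FGF21* low cows. All 8 *FGF21* high cows lay below the *FGF21* low mean, although 5 of the 8 *FGF21* low cows lay within the range of the other group. Its log2 fold change was -0.19 (standard error 0.09, limma p = 0.0436, adjusted p = 0.659, exact permutation p = 0.0496). The mean signals of *COL1A2*, 6.01 in *FGF21* high cows and 6.21 in *FGF21* low cows, lay below 6.28, the median of all clusters. *COL3A1* had the widest spread of these chains, with signals of 6.99, 7.14 and 7.74 in *FGF21* high cows and 6.93, 7.39 and 8.01 in *FGF21* low cows. Its log2 fold change of -0.19 was smaller in size than its pooled SD of 0.345 between cows (standard error 0.15, limma p = 0.219, adjusted p = 0.820, exact permutation p = 0.277).

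The high values of these chains came from the same animals. Replicates 5 and 7 of *FGF21* low had the highest 2 signals of all 16 cows for *COL1A1* (7.41 and 7.49), for *COL1A2* (6.47 and 6.54) and for *COL3A1* (8.01 and 7.98). Replicate 5 of *FGF21* high had the highest signal of its own group for each, with 7.22 for *COL1A1*, 6.19 for *COL1A2* and 7.74 for *COL3A1*. These 2 *FGF21* low cows were picked out by these 3 chains, the only ones of the 10 fibrillar collagens with both in the top places. The share of the fibrillar collagens was thus fixed by that choice. Both cows held the top places for 0 of the 6 type IV collagens, 0 of the 26 other collagens and 0.514% of all clusters. Without replicate 5 of *FGF21* low the log2 fold change of *COL1A2* was -0.15 (limma adjusted p = 0.670), and without replicate 7 it was -0.14 (limma adjusted p = 0.838). *COL1A2* also missed the unadjusted threshold without replicate 1, 6, 7 or 8 of *FGF21* high and without replicate 3 or 8 of *FGF21* low. The log2 fold change of *COL3A1* was -0.11 without replicate 5 and also without replicate 7 of *FGF21* low. With the running number of the sample labels as a covariate, the log2 fold changes were -0.118 for *COL1A1*, -0.156 for *COL1A2* and -0.067 for *COL3A1*, and none of them was below the unadjusted threshold. The small proteoglycan gene *LUM*, whose product lumican binds collagen fibrils, had its highest signals in the same cows, with 7.83 in replicate 5 and 8.03 in replicate 7 of *FGF21* low, and 7.36 in replicate 5 of *FGF21* high as the highest there. *LUM* was chosen after its values were seen. Of 15 fibril-binding genes examined, it was the only 1 (6.67%) with both *FGF21* low cows in the top 2 places.

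**Figure D2:**
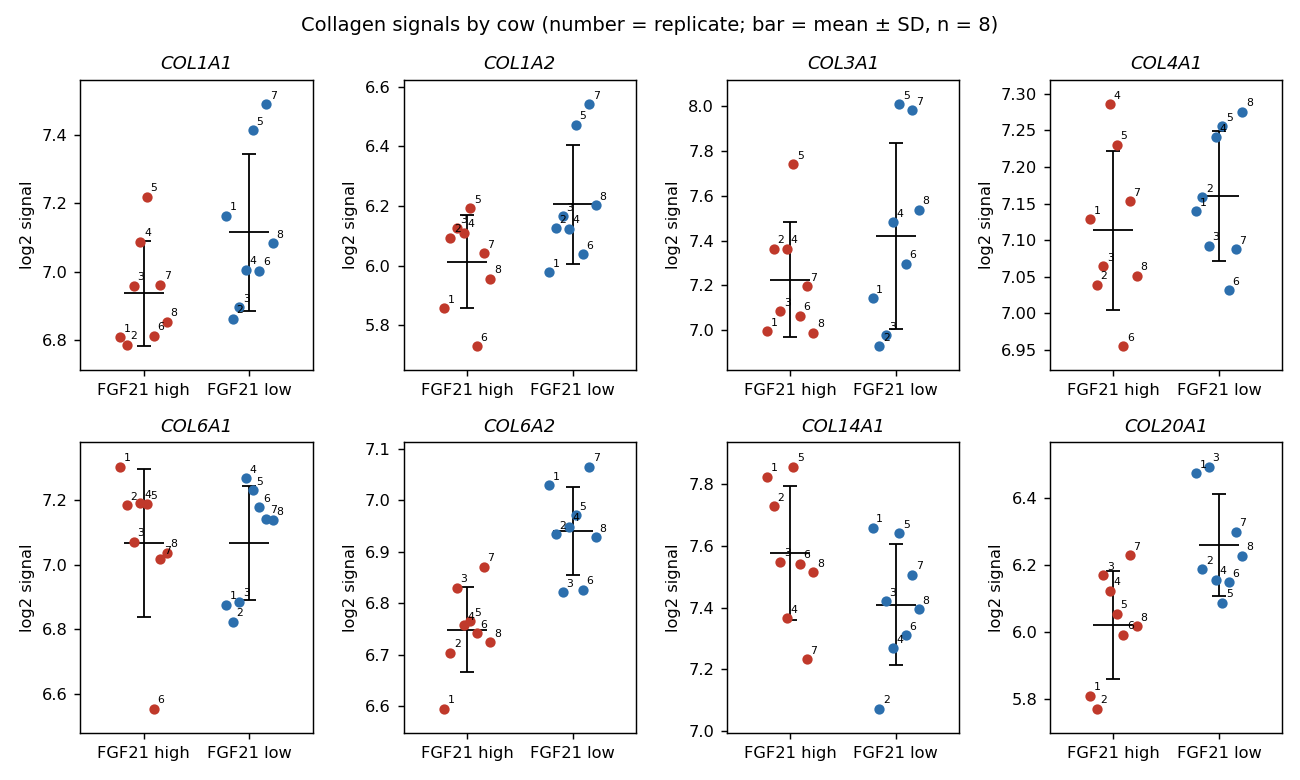
Log2 signal of 8 collagen genes in each cow, *FGF21* high left and *FGF21* low right, with replicate numbers at the points and the mean ± SD of each group (n = 8) in black. For *COL1A1*, *COL1A2* and *COL3A1* replicates 5 and 7 of *FGF21* low stand above the other cows, while for *COL6A2* the groups are shifted as a whole and overlap between 6.82 and 6.87.

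The other fibrillar collagens differed less. *COL5A3*, a chain of the type V collagen that helps to start fibrils, had the largest negative value among them, with a log2 fold change of -0.13 (limma adjusted p = 0.703). *COL5A1*, the defining chain of type V collagen, was the only fibrillar gene with a positive value. Its signals were 5.69, 6.04 and 6.29 in *FGF21* high cows and 5.76, 5.94 and 6.13 in *FGF21* low cows (log2 fold change 0.10, limma adjusted p = 0.847). A further cluster of *COL5A1* on the array gave -0.064, so that the clusters of this gene disagreed in sign. *COL5A2* had a log2 fold change of -0.036, and the cartilage collagens *COL2A1*, *COL11A1* and *COL11A2* together with *COL24A1* lay between -0.07 and -0.035.

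The median pooled SD was 0.146 in the type IV collagens, 0.168 in the fibrillar and 0.200 in the other collagens, and 0.183 over all clusters. The smaller values belonged to *COL4A1* (0.099), *COL4A2* (0.112) and *COL4A5* (0.129). *COL4A3* (0.164), *COL4A4* (0.166) and *COL4A6* (0.178) were near the fibrillar median. *COL4A1* and *COL4A2* encode the chains of the common basement membrane network and point away from each other on chromosome 12, with 47.3 kb between their clusters. *COL4A1* had signals of 6.96, 7.10 and 7.29 in *FGF21* high cows and 7.03, 7.15 and 7.28 in *FGF21* low cows, with a log2 fold change of -0.047 (limma adjusted p = 0.918, 95% confidence interval -0.18 to 0.09). *COL4A2* had signals of 6.94, 7.17 and 7.29 in *FGF21* high cows and 6.91, 7.17 and 7.23 in *FGF21* low cows, with a log2 fold change of 0.033 (limma adjusted p = 0.955, 95% confidence interval -0.11 to 0.17). The groups thus covered nearly the same range for both chains. The other type IV chains, known best from kidney, lung and eye, form divergent pairs too. *COL4A3* had a log2 fold change of -0.15 (limma adjusted p = 0.735) and its neighbor *COL4A4* one of 0.07 (adjusted p = 0.912), and the X-linked pair *COL4A5* and *COL4A6* had -0.08 and -0.07.

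Type VI collagen forms beaded filaments around cells from the chains of *COL6A1*, *COL6A2* and *COL6A3*. *COL6A2* (chromosome 1, 147542825 to 147570738, plus strand) was the collagen with the smallest p. Its lowest, median and highest signals were 6.60, 6.75 and 6.87 in *FGF21* high cows and 6.82, 6.94 and 7.07 in *FGF21* low cows. All 8 *FGF21* high cows were below the *FGF21* low mean, and only replicates 3 and 7 of *FGF21* high reached the range of the other. The mean was 6.75 ± 0.08 in *FGF21* high cows and 6.94 ± 0.09 in *FGF21* low cows (SD, n = 8 each). The log2 fold change was -0.19 (standard error 0.06, limma p = 0.00434, adjusted p = 0.484, exact permutation p = 0.000932, where the smallest p this design allows is 0.00016). *COL6A2* was below an unadjusted p of 0.05 in each of the 16 fits that left out 1 cow, with log2 fold changes from -0.21 to -0.17, and in all of them the adjusted p was 0.305 or more. Its pooled SD lay at percentile 0.935 of all clusters, so that this gene was among the least variable on the array.

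The partner chains of type VI collagen did not show this. *COL6A1* lies 119 kb before *COL6A2* on the same strand of chromosome 1. Its signals were 6.55, 7.13 and 7.30 in *FGF21* high cows and 6.82, 7.14 and 7.27 in *FGF21* low cows, and its log2 fold change was 0.00 (exact permutation p = 0.999, 95% confidence interval -0.21 to 0.21). *COL6A3* had signals of 6.21, 6.49 and 6.66 in *FGF21* high cows and 6.20, 6.61 and 6.76 in *FGF21* low cows, with a log2 fold change of -0.07 (limma adjusted p = 0.928). *COL6A5* and *COL6A6*, which encode further type VI chains, had log2 fold changes of -0.022 and -0.13. Whether the difference between the groups was itself different for *COL6A2* and *COL6A1* was not tested.

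The fibril-associated collagens sit on the surface of fibrils. *COL20A1* (chromosome 13, 54733010 to 54756411, minus strand), a little-studied member, had the largest fold change of all collagens. Its signals were 5.77, 6.04 and 6.23 in *FGF21* high cows and 6.09, 6.21 and 6.49 in *FGF21* low cows, and all 8 *FGF21* high cows lay below the *FGF21* low mean. The log2 fold change was -0.24 (standard error 0.08, limma p = 0.00868, adjusted p = 0.538, exact permutation p = 0.0073). Its mean signals lay below 6.28, the median of all clusters, as did those of *COL1A2*, and the deposited values hold no measure of background. *COL14A1*, whose product binds decorin on fibrils, was the collagen with the largest positive value. Its signals were 7.23, 7.55 and 7.86 in *FGF21* high cows and 7.07, 7.41 and 7.66 in *FGF21* low cows, with 6 of 8 *FGF21* high cows above the *FGF21* low mean (log2 fold change 0.17, limma p = 0.108, adjusted p = 0.752, exact permutation p = 0.126). Of the 10 fibril-associated collagens 8 had negative values.

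Among the remaining families, all 4 transmembrane collagens had negative values with a median of -0.12, none of them past an unadjusted p of 0.05. *COL10A1*, a short-chain collagen of growth plate cartilage, had signals of 3.88, 4.27 and 4.77 in *FGF21* high cows and 4.27, 4.55 and 4.77 in *FGF21* low cows (log2 fold change -0.21, limma p = 0.0994, adjusted p = 0.742, exact permutation p = 0.136). The mean signals of *COL10A1*, 4.32 in *FGF21* high cows and 4.53 in *FGF21* low cows, lay far below 6.28, the median of all clusters. The multiplexins *COL15A1* and *COL18A1* belong to basement membranes, and *COL18A1* is known to be expressed by hepatocytes in human liver. *COL18A1* had signals of 8.97, 9.28 and 9.56 in *FGF21* high cows and 8.998, 9.29 and 9.60 in *FGF21* low cows, and its log2 fold change was -0.06 (limma adjusted p = 0.947). *COL15A1* had a log2 fold change of -0.09 (limma adjusted p = 0.875). In all, 15 of the 42 collagens had a mean signal above the median of all clusters, 3 fibrillar, 2 type IV and 10 others.

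The highest collagen signals lay more often in *FGF21* low cows and the lowest more often in *FGF21* high cows. How often each cow held the highest or lowest signal over all clusters was not computed. Replicate 1 of *FGF21* low had the highest signal of all cows for 8 collagens, and replicate 7 of *FGF21* high for 7. The lowest signal was found in replicates 1 and 6 of *FGF21* high for 7 collagens each, in replicate 5 of that group for 6 and in replicate 2 for 5. Replicates 1 and 6 of *FGF21* high and replicate 1 of *FGF21* low are among the 4 arrays with the widest spread, whose part in the result was not tested beyond leaving them out. Between arrays of a group, the pairwise correlation over all clusters was 0.980 to 0.988 in *FGF21* high cows and 0.979 to 0.989 in *FGF21* low cows. The labels give an RNA integrity number of 6.02 ± 0.54 for all samples together. In the study's methods this value follows the RNA of the whole sampled herd, not of the selected cows alone. The study reads it as some degradation that can lower array sensitivity and specificity, though as sufficient for hybridization.

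The main fibrillar chains varied together between cows. Over 16 cows *COL1A1* was related to *COL3A1* with Pearson's r = 0.86 and Spearman's rho = 0.72 (permutation p = 6e-05 and p = 0.00276, adjusted over 20 relations 0.0012 and 0.0219), and r was 0.67 without the 2 cows farthest from the median of *COL1A1*. Within groups r was 0.77 in *FGF21* high cows and 0.89 in *FGF21* low cows (exact permutation p = 0.0228 and p = 0.00518, adjusted 0.0507 and 0.0207). Without its 2 farthest cows r was -0.07 in *FGF21* high cows and 0.56 in *FGF21* low cows, so that the relation within *FGF21* high cows rested on those cows. *COL1A1* and *COL1A2* gave r = 0.80 and rho = 0.63 over 16 cows (permutation p = 0.00032 and p = 0.00956, adjusted 0.0032 and 0.0429). Without the 2 farthest cows r was 0.48. Within *FGF21* high cows r was 0.70 (exact permutation p = 0.0515, adjusted 0.0937), and 0.52 without its 2 farthest cows. Within *FGF21* low cows r was 0.78 (exact permutation p = 0.0308, adjusted 0.0615), and -0.46 without its 2 farthest cows, so that the relation within *FGF21* low cows rested on those cows.

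*COL3A1* also went along with *PDGFRB*, the platelet-derived growth factor receptor of stellate cells and other pericytes. Over 16 cows r was 0.73 and rho 0.70 (permutation p = 0.00116 and p = 0.00328, adjusted 0.00773 and 0.0219), and r was 0.68 without the 2 farthest cows. It was 0.56 within *FGF21* high cows (exact permutation p = 0.145, adjusted 0.193) and 0.89 within *FGF21* low cows (exact permutation p = 0.00186, adjusted 0.0093). For *ACTA2*, the smooth muscle actin of activated stellate cells, r with *COL3A1* was 0.39 and rho 0.41 (permutation p = 0.132 and p = 0.116, adjusted 0.189 and 0.194). Within *FGF21* high cows r was 0.66 and rho 0.76 (exact permutation p = 0.0718 and p = 0.0368, adjusted 0.111 and 0.0735), with r of 0.13 without the 2 farthest cows, and within *FGF21* low cows r was 0.14 and rho 0.17 (exact permutation p = 0.720 and p = 0.703). *COL4A1* and *COL4A2* gave r = 0.57 and rho = 0.55 (permutation p = 0.0211 and p = 0.0300, adjusted 0.0507 and 0.0667), and r was 0.32 without the 2 farthest cows. Within groups r was 0.53 in *FGF21* high cows and 0.76 in *FGF21* low cows (exact permutation p = 0.177 and p = 0.0194, adjusted 0.222 and 0.0507), and without the 2 farthest cows of each -0.47 in *FGF21* high cows and 0.48 in *FGF21* low cows. *COL1A1* and *COL4A1* gave r = 0.46 and rho = 0.56 (permutation p = 0.0722 and p = 0.0271, adjusted 0.111 and 0.0667), and r was 0.65 without the 2 farthest cows. Within *FGF21* high cows r was 0.80 and rho 0.79 (exact permutation p = 0.0172 and p = 0.0279, adjusted 0.0507 and 0.0667), with r of 0.47 without the 2 farthest cows. Within *FGF21* low cows r was 0.12 and rho 0.12 (exact permutation p = 0.753 and p = 0.793). Whether the relations differed between the groups was not tested. With *FGF21* itself *COL1A1* had r = 0.25 and rho = 0.17 within *FGF21* high cows (exact permutation p = 0.554 and p = 0.703) and r = -0.24 and rho = -0.12 within *FGF21* low cows (exact permutation p = 0.556 and p = 0.793).

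**Figure D3:**
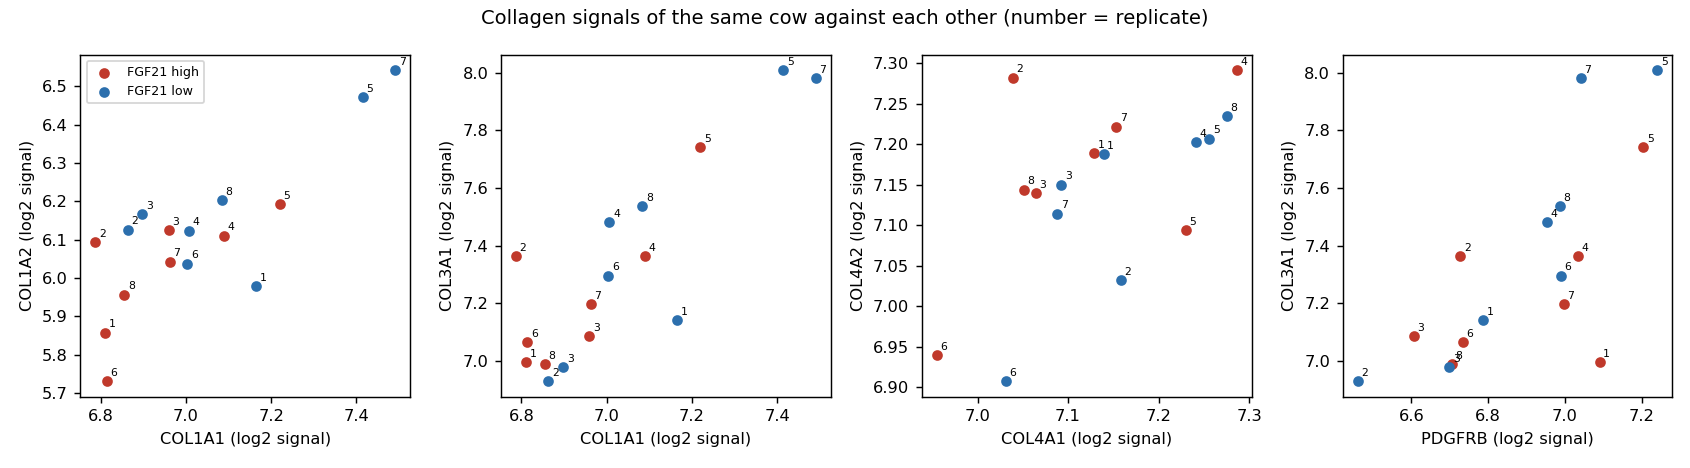
Log2 signals of 4 pairs of genes in the same cow, one point for each cow with its replicate number, *FGF21* high in red and *FGF21* low in blue. The relations over 16 cows had r = 0.80 (*COL1A1* and *COL1A2*), 0.86 (*COL1A1* and *COL3A1*), 0.57 (*COL4A1* and *COL4A2*) and 0.73 (*PDGFRB* and *COL3A1*), and replicates 5 and 7 of *FGF21* low lie at the upper end of the fibrillar panels.

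The genes that build, bind and degrade collagen were also examined, and 0 members of any list passed an adjusted p of 0.05. Of 20 genes for procollagen folding and modification, 1 was higher and 1 lower at an unadjusted p under 0.05, that is 5.0% in each direction, against 2.89% higher and 4.52% lower over all clusters. *FKBP14*, a prolyl isomerase of the endoplasmic reticulum, had a log2 fold change of 0.20 (limma adjusted p = 0.652) and *TMEM38B*, an ion channel of the endoplasmic reticulum whose loss causes brittle bones in humans, one of -0.27 (limma adjusted p = 0.578). The list had a median of -0.025 with 12 of 20 negative. The collagen chaperone gene *SERPINH1* had a log2 fold change of 0.027. Of the prolyl 4-hydroxylase subunit genes, *P4HB* had -0.025, *P4HA1* -0.13, *P4HA2* -0.06 and *P4HA3* -0.15, none of them below the unadjusted threshold. Among 14 genes for procollagen processing and cross-linking none was below an unadjusted p of 0.05. The smallest p belonged to the lysyl oxidase-like gene *LOXL4* (log2 fold change -0.16, limma adjusted p = 0.720). Fibril-binding proteoglycans and glycoproteins had 12 of 15 negative values, a median of -0.046 and none past the unadjusted threshold. *ELN*, which encodes elastin, was lowest in p (log2 fold change -0.19, limma adjusted p = 0.706).

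Partners of type IV collagen in the basement membrane, such as laminins and nidogens, had 9 of 14 positive values and a median of 0.029, with 0 below an unadjusted p of 0.05. *LAMA2*, a laminin chain, had the smallest p (log2 fold change -0.19, limma adjusted p = 0.706). Among 16 genes for collagen breakdown and its inhibitors, 1 (6.25%, against 4.52% of all clusters) was lower at an unadjusted p under 0.05, the collagenase gene *MMP1* with a log2 fold change of -0.25 (limma adjusted p = 0.630), and the median was 0.0034. Among 10 collagen receptors none was below that threshold, and *CD44* had the smallest p (log2 fold change 0.19, limma adjusted p = 0.732). Of 18 genes of the TGF-beta and PDGF pathways, which stimulate collagen synthesis in stellate cells, 1 was higher and 1 lower at an unadjusted p under 0.05, that is 5.56% in each direction, against 2.89% higher and 4.52% lower over all clusters. *SMAD7*, an inhibitor of TGF-beta signaling, had 0.24 (limma adjusted p = 0.630) and *PDGFC*, a platelet-derived growth factor, -0.13 (limma adjusted p = 0.638). *P3H3*, *LAMA3*, *PXDN* and *TGFB1* had no matching cluster and are not analysed here.

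**Figure D4:**
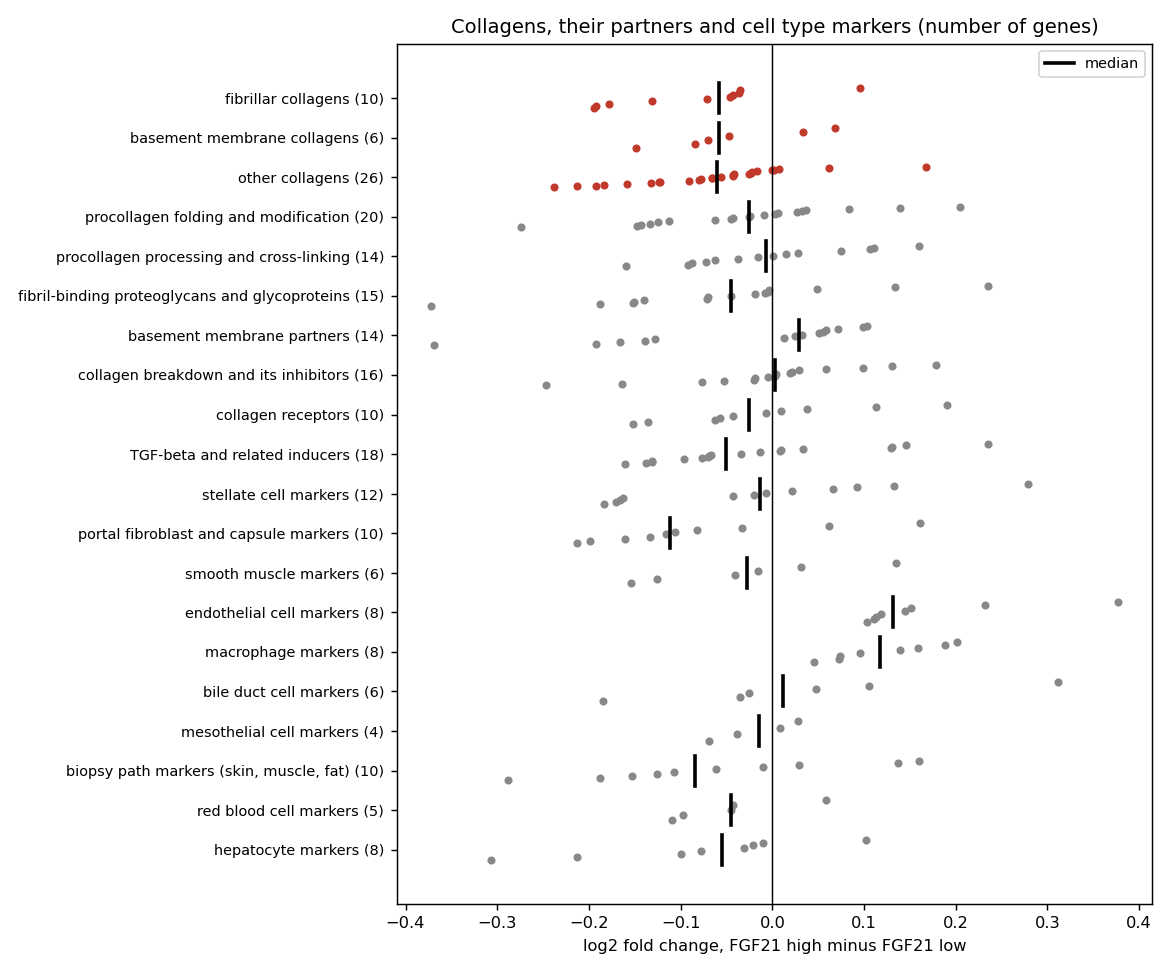
Log2 fold change (*FGF21* high minus *FGF21* low) of each gene in the collagen classes (red), the lists of collagen partners and the cell type marker lists (gray), with the median of each list as a black bar and the number of genes in brackets. The medians of the 3 collagen classes lie at -0.06, and all 8 endothelial and all 8 macrophage markers lie above 0.

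The cellular composition of the biopsies was followed by markers. Hepatocyte markers, which define the tissue, had list means of 12.14 to 12.41 in *FGF21* high cows and 12.32 to 12.48 in *FGF21* low cows. Of these 8 genes 7 were negative (87.5%, against 56.6% of all clusters), with a median of -0.054, near that of the collagens. At an unadjusted p under 0.05, 2 of 8 were lower in *FGF21* high cows (25%, against 4.52% of all clusters). *CPS1* had a log2 fold change of -0.21 (limma adjusted p = 0.545) and *APOA1* one of -0.31 (limma adjusted p = 0.637). Stellate cell markers had list means of 6.78 to 7.06 in *FGF21* high cows and 6.68 to 7.08 in *FGF21* low cows, with 7 of 12 negative and a median of -0.014. At the unadjusted threshold 1 of 12 was higher (8.33%, against 2.89% of all clusters). *LRAT*, which stores retinol as ester in quiescent stellate cells, had a log2 fold change of 0.28 (limma adjusted p = 0.538). Its signal was 7.08 to 7.60 in *FGF21* high cows and 6.67 to 7.29 in *FGF21* low cows, so that the groups overlapped. *HAND2* (log2 fold change -0.18, limma adjusted p = 0.717), *CYGB* (-0.16, limma adjusted p = 0.702) and the other stellate cell markers were not below the unadjusted threshold.

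Portal fibroblast and capsule markers also had mostly negative values, with 8 of 10 negative (80.0%, against 56.6% of all clusters) and a median of -0.11. Their list mean was 5.67 to 5.90 in *FGF21* high cows and 5.73 to 6.03 in *FGF21* low cows. At the unadjusted threshold 2 of 10 were lower (20.0%, against 4.52% of all clusters). *THY1* had a log2 fold change of -0.21 (limma adjusted p = 0.635) and *MFAP4* one of -0.20 (limma adjusted p = 0.671). Endothelial markers were on the opposite side, with 8 of 8 positive and a median of 0.13, and list means of 8.15 to 8.43 in *FGF21* high cows and 7.97 to 8.31 in *FGF21* low cows. *LYVE1* (log2 fold change 0.38, limma adjusted p = 0.522) and *CLEC4G* (0.23, limma adjusted p = 0.565), both of sinusoidal endothelium, had the smallest p and were the 2 of 8 markers higher at the unadjusted threshold (25%, against 2.89% of all clusters). All 8 macrophage markers were positive as well, with 0 at the unadjusted threshold, a median of 0.12 and list means of 9.06 to 9.67 in *FGF21* high cows and 9.004 to 9.47 in *FGF21* low cows. Markers of skin, muscle and fat on the path of the needle had 7 of 10 negative, 1 lower at the unadjusted threshold (10%, against 4.52% of all clusters), and list means of 5.08 to 5.43 in *FGF21* high cows and 5.21 to 5.39 in *FGF21* low cows. The keratin gene *KRT1* among them had a log2 fold change of -0.29 (limma adjusted p = 0.445). Smooth muscle, bile duct, mesothelial and red blood cell markers had 0 members below an unadjusted p of 0.05, with medians of -0.028, 0.011, -0.015 and -0.045. *OIT3*, *FCN3*, *WT1* and *AHSP* had no matching cluster. The part of these cell types in the collagen values was not tested.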

How the data were processed

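Values are the deposited log2 signals, 1 per transcript cluster and cow. The authors had them made at a service facility from Affymetrix whole-transcript arrays with Affymetrix Expression Console 1.4, using RMA (background correction, quantile normalization between arrays, probe summary) on transformed signals. Columns of the authors' own comparison (means by group, fold changes, p-values) were not used. Arrays have no read depth, and the number of arrays limits the precision. Groups and replicate numbers came from the sample titles. That each cow gave 1 sample is taken from the study's methods.

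No cluster was filtered. The comparison was made in R 4.3.3 by lmFit and eBayes of limma 3.58.1 (group as the only term) over all 20421 clusters, with Benjamini-Hochberg adjustment. The fold change of 1.2 and p under 0.05 are the study's criteria. Named collagens were compared by exact permutation over 12870 assignments, relations within a group over 40320 pairings and over 16 cows with 100000 resamples. Python 3.11.15 was used with matplotlib 3.10.9, scipy 1.17.1, pandas 2.3.3 and numpy 2.4.6, and the fit was tested on simulated data. Collagens named are those known from liver, those at unadjusted p under 0.05 and the 3 largest in each direction. *COL5A3* and a few others named for comparison, as well as *LUM*, were chosen after their values were seen. From the lists, members at unadjusted p under 0.05, the smallest p and examples are named. The members and lists were chosen with earlier results of these data known.

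Replicate numbers did not pair the cows (correlation of same-numbered cows -0.205 to 0.134). Alternatives were Welch's test, the methods' t-test, trend and robust moderation, array weights, the rounded value table, renewed quantile normalization, median centring, a signal filter, a replicate block, the running number of the labels as covariate, every matching cluster, another class of the multiplexins, and leaving out cows.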

Additional observations from a re-analysis of the deposited data

Results flagged for a closer look

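*COL6A1* in replicate 6 of *FGF21* high was 6.55, far below the next cow of that group at 7.02, while the highest was 7.30. The gap was 0.617 of the range of the group, above the critical value of Dixon's ratio for 8 values. Of 32 sets of values (16 collagens in 2 groups), this was the only one with such a gap, and chance alone gives one in about 1 of 20 sets. Without this cow the log2 fold change of *COL6A1* was 0.074.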

How the results depend on the processing

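No collagen passed an adjusted p of 0.05 under any alternative. The number of collagens lower at an unadjusted p under 0.05 was 3, and became 5 with array weights, 5 with the replicate block, 1 with the filter for signals above the median (which keeps 15 collagens) and 1 without the 4 arrays of widest spread, chosen after seeing the data. Leaving out 1 cow gave 2 to 5, with 5 without replicate 2 of the *FGF21* low group. It gave 0 to 1 collagens that were higher (*COL14A1*, without replicate 7 of the *FGF21* high group) and 0 to 2 that were lower past both criteria (*COL10A1* without replicate 2 of the *FGF21* high group, and *COL10A1* with *COL20A1* without replicate 7). The count also fell with renewed quantile normalization, median centring and the running number as covariate, where *COL1A2* was not below the threshold. *COL1A2* was below the unadjusted threshold in 8 of 16 fits that left out 1 cow, *COL20A1* and *COL6A2* in 16. Of 11 other alternative fits, *COL1A2* was below it in 5, *COL20A1* in 9 and *COL6A2* in 11. Welch's test was among those in which *COL1A2* was not, and the signal filter removed *COL1A2* and *COL20A1*. *COL20A1* was not below it without the 4 arrays of widest spread. The fibrillar median was -0.178 with the filter, which keeps 3 of its genes, and -0.012 without the 4 arrays. The type IV median was -0.0068 with the filter, which keeps 2 of its genes. The log2 fold change of *COL6A1*, near 0, changed sign with array weights (-0.025), renewed quantile normalization (-0.012), without the 4 arrays (-0.026) and on leaving out 1 cow (-0.035 to 0.074). *COL5A2* changed sign without the 4 arrays (0.045) and *COL5A1* with its other cluster (-0.064). The cause was not tested. The other alternatives kept the direction of the named collagens, and all kept that of the class medians.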
